A study of Mus musculus with 21 samples.

Results

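The genes described are 6 secreted proteins of the bone morphogenetic protein (BMP) pathway in the mouse presomitic mesoderm (PSM): the ligands Bmp2, Bmp4, Bmp7 and Gdf11 and the extracellular modulators Bmper and Nog. They were taken by name, 6 of the 18193 genes that had a probe set with a single gene symbol, and each was read from its probe set with the highest mean signal. Of these, 5 passed the filter on low signal and were tested with 12143 genes in all, and Nog did not pass. The PSM is the paired strip of unsegmented mesoderm beside the neural tube from which somites bud. It was freed from neighbouring tissue of CD-1 embryos, an outbred strain, and divided into 7 parts, each hybridised to 3 arrays, 21 in all. No mutant, transgene or drug is named in the labels; the tissue of all 7 groups went through pancreatin (2 mg/ml, 1 min), a protease mixture that loosens tissue, and through 2 rounds of RNA amplification. The stage is embryonic day 8.5 by one label and 9.0 days post-coitus by the protocol. The labels describe a series from tailbud to somite without stating which number lies at which end. In the data, the 5 tailbud progenitor markers (Cdx2, Cdx4, Wnt3a, Nkx1-2 and Cyp26a1) summed to a signal of 1589 to 5389 in part 1 and 48.3 to 98.7 in part 7, the 5 PSM markers (Tbx6, Msgn1, Hes7, Dll1 and Dll3) to 2669 to 3294 in part 1, 3671 to 4415 in part 4 and 325 to 765 in part 7, and the 5 somite markers (Meox1, Meox2, Tcf15, Uncx and Pax3) to 241 to 504 in part 1 and 5563 to 7642 in part 7.

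Left and right strips of 1 embryo and a further set from another embryo were used, by the design text, so that some arrays share an embryo, and which replicate numbers these are is not stated. The p-values therefore measure the spread between these arrays, which may understate that between embryos. Array means lay between 151 and 154 signal units and medians between 12.9 and 13.7, no 2 arrays were identical, and the number of arrays per part, 3, limits the precision. Signals are the deposited MAS5 values, an Affymetrix summary of the probes in a probe set on a linear scale. Differences were fitted on log2(signal + 16), on which a signal of 0 reads 4; this scale understates the fold change of low genes. A level near or under 13.3, the median of all values and the filter used here, is called low below, since detection calls were not used. Levels of different probe sets are not compared with each other.

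BMP ligands are secreted dimers that bind pairs of type I and type II serine/threonine kinase receptors, which phosphorylate Smad1, Smad5 and Smad9; these enter the nucleus with Smad4 and switch on targets such as Id and Msx genes. Gdf11 is a relative that signals through activin-type receptors to Smad2 and Smad3. Modulators outside the cell set how much ligand reaches a receptor: noggin (Nog) binds ligand and blocks its receptor sites, and the chordin-related protein encoded by Bmper binds ligand and has been described both as an inhibitor and as a promoter of BMP signals. In the trunk, BMP signals are known for specifying lateral over paraxial mesoderm, and noggin for antagonising them in paraxial mesoderm.

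Along the PSM the members had unlike profiles. Bmper was highest in part 1 and low from part 3 to part 6, Bmp4 was higher in parts 1 to 4 than in parts 5 to 7, Bmp2 peaked in part 4, and Bmp7 was highest in parts 6 and 7. Gdf11 and Nog were low in nearly every array. By limma's F test over the 7 parts, 4 of the 5 tested members differed (adjusted p < 0.05, Benjamini-Hochberg over all genes tested), where 13.4% of all genes did. By the slope with part number 2 members fell, Bmper and Bmp4, and none rose (Bmp7 had an unadjusted p of 0.0188 in limma), where 11.1% of all genes fell, 8.09% rose and 19.2% changed in either direction. In the contrast of the middle parts, 3 to 5, with parts 1, 2, 6 and 7, 1 member was higher, Bmp2, and 2 were lower, Bmper and Bmp7, where 2.92% of all genes were called, 1.32% higher and 1.6% lower. In bulk tissue, fewer cells of a type and less RNA per cell cannot be told apart.

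**Figure D1:**
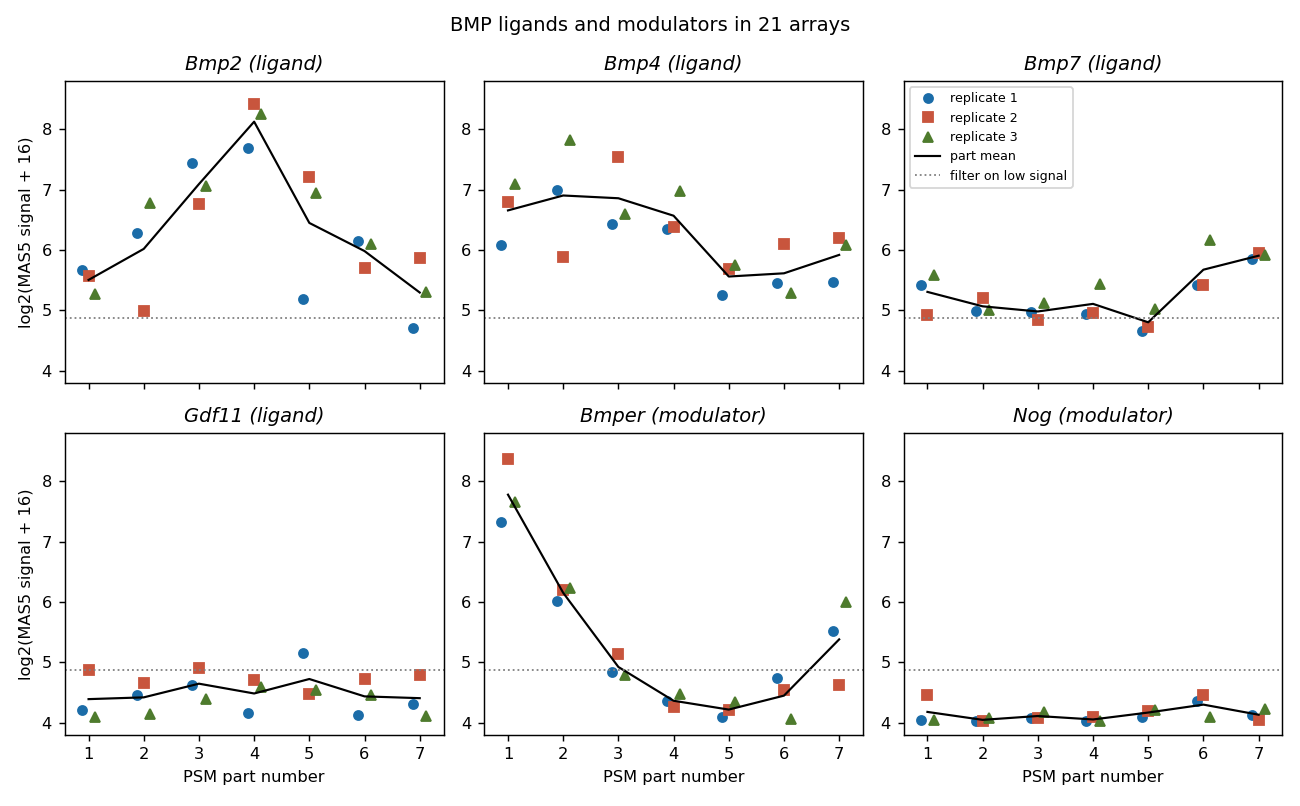
Signal of the 4 ligands and 2 modulators in each of the 21 arrays, as log2(MAS5 signal + 16) against PSM part number, with symbols for replicate numbers, a line through the part means and a dotted line at the filter on low signal. Bmp2 peaks in part 4, Bmper falls from part 1 and Nog lies under the dotted line in all 21 arrays.

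Bmper showed the largest change of the members. In part 1 its signal was 144, 313 and 186 in the 3 arrays, in part 2 it was 48.8, 57.7 and 59.5, and in part 3 it was 12.7, 19.2 and 11.7. Signals of 4.57, 3.18 and 6.14 in part 4, 1.14, 2.48 and 4.33 in part 5 and 10.6, 7.33 and 0.765 in part 6 were all low. In part 7 the arrays read 30.0, 8.66 and 47.9. All arrays of part 1 thus exceeded all arrays of part 2, which exceeded all those of the other parts, and part 1 was the highest within each of the 3 replicate numbers. The order of part means was 1, 2, 7, 3, 6, 4 and 5; parts 7 and 3, parts 6 and 4 and parts 4 and 5 overlapped in their arrays.

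Between part 1 and part 4 the mean Bmper signal went from 214 to 4.63, and on log2(signal + 16) it fell by 3.42 ± 0.28 (SE; limma adjusted p = 2.53e-07). Since the part 4 signals are low, the size of this fall is set by the added 16 and gives no fold change. It was lower in part 7 too: between part 1 and part 7 Bmper fell by 2.40 ± 0.28 (adjusted p = 6.24e-06). Only this member was called between parts 7 and 1, where 13.4% of all genes were called and 7.3% were lower in part 7. For parts 4 and 1, a contrast chosen after the data were seen, 2 members were called, Bmper lower and Bmp2 higher in part 4, against 5.71% of all genes. Of the 6 steps between neighbouring parts, the step from part 1 to part 2 was the only one called for any member, with a fall of Bmper by 1.63 ± 0.28 (adjusted p = 0.00711); 0.277% of all combinations of a gene and a step were called, and 0.486% of genes fell at this step. From part 2 to part 3 Bmper differed by -1.23 ± 0.28 (adjusted p = 0.267). Its slope over the 7 parts was -0.40 ± 0.09 per part (adjusted p = 0.00335), and its levels in the middle parts were 1.44 ± 0.15 below those of the ends (adjusted p = 1.87e-05).

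The return in part 7 was less certain. Against part 4, Bmper read 1.02 ± 0.28 higher in part 7 (adjusted p = 0.0475, in a contrast chosen after the data were seen, with 4% of all genes called), and the adjusted p stayed under the threshold in 4 of 21 fits that each left out 1 array. Replicate 2 of part 7, at 8.66, lay within the range of part 6. The step from part 1 to part 2 lost its call with a pseudocount of 1 (-1.86, adjusted p = 0.208), without replicate 2 of part 1 (-1.33, 0.0789), without replicate 1 of part 2 (-1.56, 0.0611), and without all arrays of replicate 1 (-1.79, 0.0895) or replicate 2 (-1.36, 0.114), the difference staying negative in each; the slope lost its call without all arrays of replicate 2 (adjusted p = 0.0691). The tailbud marker sum fell, as Bmper did, from part 1, where it was 1589 to 5389, to part 2, where it was 520 to 772.01. Its 5 genes all fell with part number. Within part 1 both were lowest in replicate 1, but the tailbud sum was highest in replicate 3 and Bmper in replicate 2. Replicate 2 of part 5 had a tailbud sum of 563, against 32.7 and 66.1 in the other arrays of that part. Bmper read 2.48 in that array. The part of tailbud cells in the Bmper result was not tested.

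Bmp4, a ligand that is expressed in lateral mesoderm and the posterior end of the embryo, fell with part number. Its signal was 51.6, 95.7 and 120 in part 1, 112, 43.3 and 211 in part 2, and 70.4, 170 and 81.1 in part 3. Part 4 read 65.5, 67.3 and 110, and part 5 read 22.05, 35.5 and 37.7. In part 6 the arrays were at 27.9, 52.5 and 23.0 and in part 7 at 28.3, 57.9 and 51.6. Every array of parts 1, 3 and 4 but 1 exceeded the highest of parts 5 to 7, which was 57.9; the exception was replicate 1 of part 1, and in part 2 replicate 2 also lay below it. Parts 2, 3, 1 and 4, in this order of means, overlapped with each other, as did parts 7, 6 and 5, and the arrays of part 4 did not overlap with those of part 7.

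The slope of Bmp4 was -0.22 ± 0.06 per part (adjusted p = 0.00887), and it was negative within each replicate number, at -0.22, -0.12 and -0.32. No single array decided this call, with adjusted p between 0.0034 and 0.0211 when 1 array was left out; it was lost without replicate 1 (adjusted p = 0.0597) or replicate 3 (0.0966). Of the neighbouring parts, 5 and 4 differed most (-1.01 ± 0.40), but this step did not pass (adjusted p = 0.668), nor did part 7 against part 1 (-0.74 ± 0.40, adjusted p = 0.250). The F test of Bmp4 gave an adjusted p of 0.0498 and stayed under the threshold in 4 of 21 fits that left out 1 array, so that this call rests on the threshold itself. Endothelial marker sums were also higher in parts 1 to 4 (120 to 1135 over 10 genes) than in parts 5 to 7 (91.8 to 338), though the ranges overlap. Within part 2, Bmp4 and these markers were both lowest in replicate 2 and highest in replicate 3. Both were highest in replicate 3 in parts 1, 4 and 5 too. In parts 3, 6 and 7, though, Bmp4 was highest in replicate 2, where these markers were lowest. Lateral mesoderm marker sums (8 genes) had the same order of replicates as Bmp4 in parts 2, 3, 4 and 5. In parts 1, 6 and 7 they were lowest in part 1 replicate 2, part 6 replicate 2 and part 7 replicate 2, unlike Bmp4. They were 48.2 to 87.1 in part 1 and 205 to 331 in part 3, where Bmp4 levels overlapped. How far endothelium or lateral mesoderm contributes to the Bmp4 values was not tested.

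Upstream sequence was given for Bmper, Bmp4 and Gdf11. The 250 bases before the RefSeq start of Bmper and of Bmp4 are printed because these 2 members fell along the tissue; capitals mark every match, on either strand, to 6 short motifs. The motifs were CAGAC (the core of a Smad binding element), GGCGCC (a GC-rich Smad1 and Smad5 element), TTTATG (the core of a Cdx site), AGGTGT (a T-box core), CTTTGA (the core of a Tcf/Lef site) and CANNTG (an E-box, which can overlap AGGTGT).
Bmper, chr9:23222826-23223075 of GRCm38.p6, plus strand: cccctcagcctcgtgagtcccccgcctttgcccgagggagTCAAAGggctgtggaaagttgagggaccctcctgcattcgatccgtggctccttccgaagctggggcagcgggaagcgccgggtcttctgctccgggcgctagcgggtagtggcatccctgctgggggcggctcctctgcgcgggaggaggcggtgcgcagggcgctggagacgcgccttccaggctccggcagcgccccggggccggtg
Bmp4, chr14:46390670-46390919 of GRCm38.p6, minus strand: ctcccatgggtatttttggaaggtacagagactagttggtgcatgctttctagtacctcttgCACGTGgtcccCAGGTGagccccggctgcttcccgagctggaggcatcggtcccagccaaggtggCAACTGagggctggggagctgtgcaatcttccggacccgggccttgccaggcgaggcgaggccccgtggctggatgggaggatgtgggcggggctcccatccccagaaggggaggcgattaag
The Bmper window held 1 match, a Tcf/Lef core read on the opposite strand, a motif found in 13.8% of 32851 RefSeq windows of this length. The Bmp4 window held 3 E-boxes, found in 66.2% of windows, and neither window held CAGAC (42.2% of windows), GGCGCC (9.59%), TTTATG (10.8%) or AGGTGT (11.8%). Bases G and C made up 71.6% of the Bmper window, with 24 CpG dinucleotides, and 63.2% of the Bmp4 window, with 11 CpG dinucleotides, where the median window had 52.4% and 6. A match is a description of the letters and not evidence of binding.

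Bmp2, a ligand closely related to Bmp4, had a peak in the middle of the tissue. The arrays of part 1 read 34.8, 31.5 and 22.7, those of part 2 read 61.8, 15.8 and 94.1, and those of part 3 read 159, 92.7 and 118. Part 4 gave 191, 328 and 290.5, above every array of every other part. In part 5 the signal was 20.7, 132 and 107, in part 6 it was 55.0, 35.8 and 52.7, and in part 7 it was 10.1, 42.5 and 23.7. Part 4 was the highest part within each replicate number. After it the means ran in the order 3, 5, 2, 6, 1 and 7; neighbours in this order overlapped in their arrays except parts 6 and 1.

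Bmp2 was 1.52 ± 0.24 higher on the log2 scale in parts 3 to 5 than in the ends (adjusted p = 0.000936), by 1.08, 1.93 and 1.55 in replicate numbers 1, 2 and 3. Part 4 exceeded part 1 by 2.62 ± 0.45, a 6.16-fold difference (adjusted p = 0.00101), and part 7 against part 4 read -2.83 ± 0.45 (adjusted p = 0.000605). Between parts 7 and 4, 3 members were called, Bmp2 lower and Bmp7 and Bmper higher in part 7, where 4% of all genes were called. The ends did not differ detectably, part 7 reading -0.21 ± 0.45 against part 1 (adjusted p = 0.817), and a straight line did not describe the gene (slope -0.05 ± 0.11, adjusted p = 0.813). No single step passed: from part 3 to part 4 the difference was 1.03 ± 0.45 (adjusted p = 0.899) and from part 4 to part 5 it differed by -1.68 ± 0.45 (adjusted p = 0.206). Replicate 1 of part 5, at 20.7, was far below the other 2 arrays of that part.

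Marker sums of the mesoderm beside the PSM were also highest in the middle parts. The lateral median was highest in part 3 (303, against 186 in part 4) and the intermediate median in part 4. The 8 lateral mesoderm genes summed to 48.2 to 87.1 in part 1, 53.3 to 449 in part 2, 205 to 331 in part 3, 154 to 455 in part 4, 66.0 to 234 in part 5 and 69.8 to 143 in parts 6 and 7. Of these, Hand1, Gata4 and Tbx5, which mark lateral and cardiac mesoderm, were low in all 21 arrays, and 1 of the 4 tested, the LIM-homeobox gene Isl1, was called higher in the middle parts (1.18 ± 0.32, adjusted p = 0.0489). The 4 measured intermediate mesoderm genes summed to 17.0 to 27.6 in part 1, 86.0 to 184 in part 4 and 58.1 to 99.2 in part 7, and 1 of them, Osr1, a gene of intermediate and lateral mesoderm, was called higher in the middle (1.16 ± 0.22, adjusted p = 0.00497). In part 2 the low Bmp2 array (replicate 2) had the lowest lateral, intermediate and endothelial sums and the high one (replicate 3) the highest. In parts 4, 5 and 6 too, the lowest Bmp2 array had the lowest lateral and intermediate sums. In parts 1, 3 and 7 it did not have the lowest lateral sum. It did have the lowest intermediate sum in parts 3 and 7, and the highest in part 1. Within part 3 the order of the lateral sums was the reverse of that of Bmp2. The part of these cells in the Bmp2 peak was not tested.

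**Figure D2:**
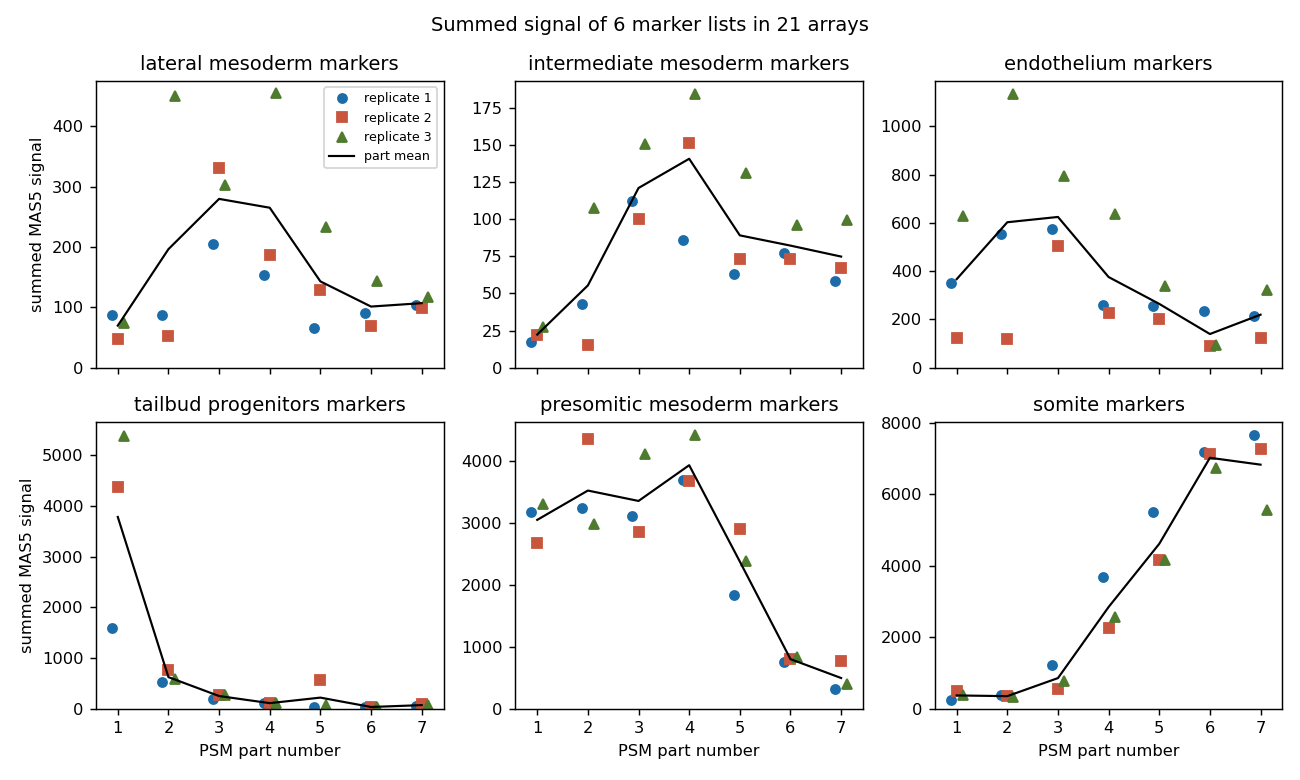
Summed MAS5 signal of 6 marker lists in each of the 21 arrays against PSM part number, with the mean of each part as a line; each panel has its own linear axis from 0. Lateral and intermediate mesoderm sums are highest in parts 3 and 4, the tailbud sum in part 1 and the somite sum in parts 6 and 7.

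Bmp7, a ligand that often pairs with Bmp2 or Bmp4, was highest at the far end. Signals were 26.7, 14.3 and 31.8 in part 1, 15.8, 20.95 and 16.04 in part 2, and 15.5, 12.6 and 19.0 in part 3. They were 14.5, 15.1 and 27.1 in part 4 and 9.27, 10.4 and 16.6 in part 5. Part 6 read 27.0, 26.8 and 56.2 and part 7 read 41.8, 45.9 and 44.2. All arrays of part 7 exceeded all arrays of parts 1 to 5, and all arrays of part 6 exceeded those of parts 2, 3 and 5. In the order of means, 7, 6, 1, 4, 2, 3 and 5, every pair of neighbours overlapped.

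The F test called Bmp7 (adjusted p = 0.00607), and its level in the middle parts was 0.52 ± 0.11 below that of the ends (adjusted p = 0.0119); both calls were kept in each fit without 1 array and lost without replicate 1 or replicate 2. Part 7 exceeded part 4 by 0.80 ± 0.21, a 1.74-fold difference (adjusted p = 0.0363), with the call lost on leaving out replicate 1 or 2 of part 4 or any 1 array of part 7 (adjusted p = 0.0801 to 0.170). Neither the difference of 0.87 ± 0.21 between parts 6 and 5 (adjusted p = 0.0865), the slope of 0.10 ± 0.04 (adjusted p = 0.0824) nor the difference of 0.60 ± 0.21 between parts 7 and 1 (adjusted p = 0.0650) passed. Each of them passed with the mean of all probe sets (0.0241, 0.0242 and 0.000891, in this order). The last also passed under quantile normalization (0.0482) and array weights (0.0481). Some fits without 1 array called the slope (lowest adjusted p = 0.0305) or parts 7 and 1 (0.0336).

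The array has 3 Bmp7 probe sets. The one with the next highest mean, 1418910_at, read 7.17, 12.6 and 7.47 in part 1, 1.11, 0.439 and 2.96 in part 4, 15.2, 13.6 and 13.7 in part 6, and 33.8, 28.8 and 25.2 in part 7. Its part 7 arrays exceeded all its others, and with it the slope was 0.13 ± 0.04 (adjusted p = 0.0339 over probe sets that passed the filter) and part 7 exceeded part 1 by 0.85 ± 0.16 (adjusted p = 0.00264). The third, 1432410_a_at, stayed low in every array and had a slope of 0.0085. Both probe sets that passed the filter were thus highest in part 7, by their means.

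**Figure D3:**
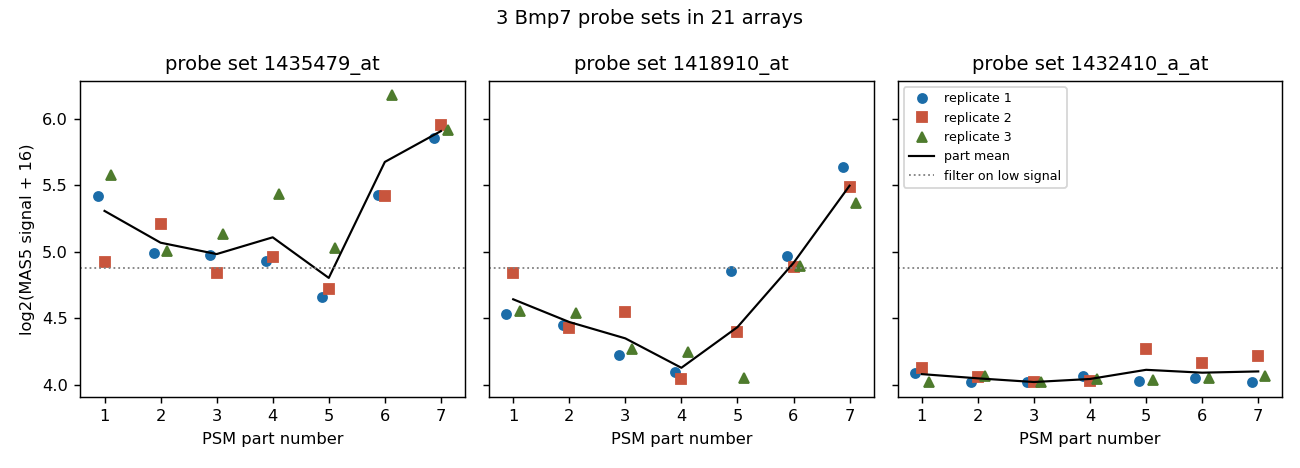
Each of the 3 Bmp7 probe sets in 21 arrays, as log2(MAS5 signal + 16) against PSM part number, with a line through part means and a dotted line at the filter on low signal. Probe sets 1435479_at and 1418910_at have their highest means in part 7, and 1432410_a_at stays below the dotted line throughout.

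Gdf11, a ligand known for patterning trunk and tail segments along the axis, was low here. Its lowest, median and highest signals over the 21 arrays were 1.04, 6.28 and 19.8, and 3 arrays reached the filter, replicate 2 of parts 1 and 3 and replicate 1 of part 5. Part means lay between 4.39 and 4.72 on the log2 scale and every pair of neighbours in their order overlapped. Neither its F test (adjusted p = 0.924) nor its slope (0.01 ± 0.03, adjusted p = 0.937) passed, so no change was detected, at signals that are low. Nog, the noggin gene, had signals from 0.283 to 5.95 with a median of 0.991, none of which reached the filter, and 7.4% of the genes had a lower mean; part means lay between 4.05 and 4.30. Its 2 highest signals, 5.95 in part 6 and 5.90 in part 1, came from replicate 2. It was therefore not among the genes tested; fitted without a filter its slope was 0.02 ± 0.01 (limma adjusted p = 0.593), and no order of parts can be read from values this low.

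Ligand and modulator profiles were compared within arrays, as the difference of their log2 values, and each of 8 pairs was tested by its slope with part number (two-sided permutation test, 100000 draws, Benjamini-Hochberg over the 8 pairs). The slope of Bmper minus Bmp7 was -0.51 per part (adjusted p = 8.0e-05 from the smallest p these draws can give, 1.0e-05). It was negative within all 3 replicate numbers, at -0.38, -0.67 and -0.46. Most of it is the slope of Bmper alone, -0.40, since that of Bmp7 was 0.10 and did not pass (limma adjusted p = 0.0824). Relative to its mean over the 21 arrays, this difference fell from 2.41 in part 1 to -0.80 in part 4 and was -0.59 in part 7. Relative to Gdf11 the slope of Bmper was -0.41 (adjusted p = 0.00824, or 0.139 without replicate 2). Gdf11 was low and had a slope near 0, so this pair restates the slope of Bmper itself, -0.40. Bmper and Bmp4, which both fell, did not differ detectably in slope (-0.19, adjusted p = 0.191). Against Bmp2 the slope was -0.36 (adjusted p = 0.169), but the difference was far from a line: relative to its mean over the 21 arrays it was 3.30 in part 1, 1.16 in part 2, -1.14 in part 3, -2.73 in part 4, -1.20 in part 5, -0.50 in part 6 and 1.11 in part 7. The low point in part 4, where Bmp2 peaked and Bmper was low, is not captured by a slope.

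Nog stayed near the floor of the scale, so its differences mirror the ligands. Against Bmp4 the slope was 0.23 (adjusted p = 0.00824; without replicate 1 it was 0.0654 and without replicate 3 it was 0.107), which is the fall of Bmp4 with its sign turned. Against Bmp2 it was 0.06 (adjusted p = 0.701), against Bmp7 -0.09 (adjusted p = 0.166) and against Gdf11 0.01 (adjusted p = 0.792). In all, 3 of the 8 pairs passed, and 2 without any 1 replicate number. Of the 3, Bmper and Bmp7 is the pair in which neither gene was near the floor throughout, although Bmper was low from part 3 to part 6.

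**Figure D4:**
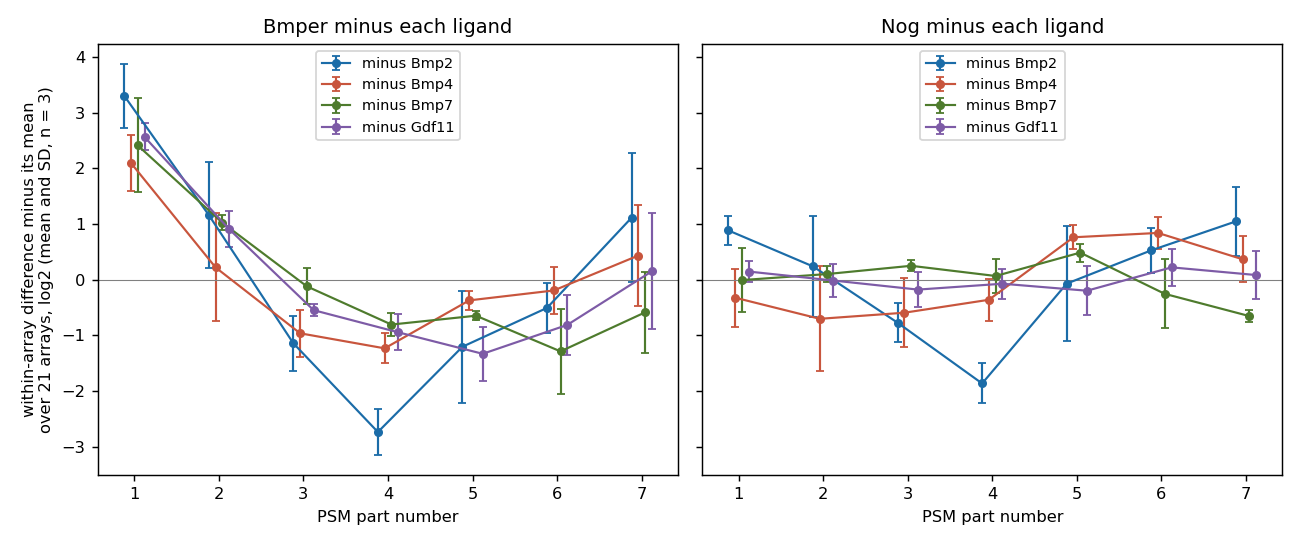
Within-array log2 difference between each modulator and each ligand, less that pair's mean over 21 arrays, against PSM part number; points are means and bars are the SD of 3 arrays. Bmper minus Bmp2 falls to -2.73 in part 4 and returns to 1.11 in part 7, while Bmper minus Bmp7 stays below 0 from part 3 on.

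For each tested member the 3 genes with the most similar profile were taken by Pearson's r over the 21 arrays, given as a description, since arrays of 1 part share their tissue. For Bmper they were Col1a2, a chain of type I collagen (r = 0.962), Lzts1 (0.914) and Qdpr, an enzyme that regenerates tetrahydrobiopterin (0.913). Col1a2 had part means of 8.76 in part 1, 6.01 in part 4 and 7.03 in part 7 on the log2 scale, and those of Bmper were 7.78, 4.36 and 5.38, so that each gene was lowest of these parts in part 4. For Bmp2 they were Tmem18 (0.865), the angiotensin receptor gene Agtr1b (0.851) and Tcf21, a bHLH factor of visceral and lateral mesoderm (0.843). Tcf21 had means of 4.25, 6.19 and 4.95 in parts 1, 4 and 7. Bmp4 was most like Tbx3, a T-box repressor (0.833), Grasp (0.833) and Shroom4 (0.817), and Bmp7 most like Plppr1 (0.862), Cdt1, which licenses replication origins (0.845), and Syt7, a synaptotagmin (0.840). For Gdf11 the values were lower, 0.745 for Zfp955b, 0.716 for 2210406O10Rik and 0.712 for Fgd2.

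The rest of the pathway was taken from lists of 88 genes, of which 82 were measured and 59 tested. By the slope with part number 12 rose and 15 fell, together 45.8% against 19.2% of all genes tested. The median slope was -0.03 per part, and 0.00 over all genes tested. Among other BMP and GDF ligands, 4 of 11 measured were tested (Bmp5, Bmp6, Gdf2 and Gdf9). By limma's slope none passed (0 rising and 0 falling, with 2 at an unadjusted p under 0.05). The largest slope was that of Bmp5 (0.11 ± 0.04, adjusted p = 0.0525). Between parts 7 and 1, however, Bmp5 was called higher in part 7 (0.85 ± 0.24, limma adjusted p = 0.0214), where 13.4% of all genes were called. Bmp6, Gdf2 and Gdf9 were not called there. Of 8 tested nodal, activin, lefty and TGF-beta ligands, 2 rose, Tgfb3 (0.21 ± 0.06) and Nodal (0.11 ± 0.03), and 2 fell, the nodal antagonists Lefty1 and Lefty2 (each -0.13). Lefty1 was low in most arrays, reaching the filter in 3 of them with a highest signal of 20.1. Nodal and Lefty2 reached it in 10 arrays each, with highest signals of 26.7 and 37.0. Tgfb3, like Bmp7, was lower in the middle than in the ends (-0.88 ± 0.16, adjusted p = 0.00234).

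Of 14 tested other secreted modulators 5 rose and 3 fell. Those that rose were Cer1, an antagonist of nodal, BMP and Wnt (0.96 ± 0.12), the proprotein convertase gene Pcsk5, whose enzyme can cleave TGF-beta family precursors including that of Gdf11 (0.47 ± 0.03), the activin-binding follistatin gene Fst (0.40 ± 0.07), Nbl1, a DAN-family antagonist (0.25 ± 0.04), and Fstl1 (0.15 ± 0.02). The 3 that fell were Kcp, a chordin-related gene like Bmper (-0.30 ± 0.04, adjusted p = 5.21e-06), the Tolloid-like protease gene Tll2 (-0.15 ± 0.04) and Twsg1, a partner of chordin (-0.06 ± 0.02, adjusted p = 0.0476). Nbl1 and Tll2 were low in most arrays, each reaching the filter in 7, with highest signals of 55.4 and 28.6. Smoc1, a matrix protein that modulates BMP signals, was called higher in the middle parts (0.90 ± 0.14, adjusted p = 0.000731), with means of 7.81 in part 1, 9.95 in part 5 and 8.82 in part 7, whereas its slope of 0.17 ± 0.07 did not pass (adjusted p = 0.0773). Chordin (Chrd) did not pass the filter.

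Of 15 tested receptors and coreceptors 5 changed with part number, where 19.2% of all genes did. Those that rose, 2 of them, were the BMP coreceptor gene Rgmb (0.32 ± 0.04, adjusted p = 4.52e-07) and the type II receptor gene Acvr2b (0.10 ± 0.02), and 3 fell: the endothelial coreceptor gene Eng (-0.32 ± 0.08), the pseudoreceptor gene Bambi (-0.31 ± 0.04) and Acvr1b (-0.09 ± 0.03). The BMP receptor genes Bmpr1a (0.00 ± 0.02), Bmpr1b (-0.07 ± 0.03), Bmpr2 (-0.08 ± 0.03) and Acvr1 (-0.07 ± 0.03) did not pass. Of 9 tested Smad and Smurf genes 2 rose, Smad3 (0.21 ± 0.02) and Smad4 (0.09 ± 0.03), and 2 fell, the inhibitory Smad7 (-0.13 ± 0.03) and the ubiquitin ligase gene Smurf1 (-0.13 ± 0.03).

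Genes known as BMP targets mostly fell. Of 12 tested, 7 fell and 1 rose, where 11.1% and 8.09% of all genes did, with a median slope of -0.13. The steepest were Bambi (-0.31 ± 0.04), Tbx3 (-0.29 ± 0.08), Msx2 (-0.23 ± 0.04, adjusted p = 0.000338) and Msx1 (-0.19 ± 0.07, adjusted p = 0.0439), followed by Id1, Smad7 and Id4 at -0.14 to -0.12. Id4 reached the filter in 8 arrays, with a highest signal of 48.2. Tbx2 rose (0.26 ± 0.05, adjusted p = 0.000337), and Id2 (0.21 ± 0.09, adjusted p = 0.124) and Id3 (0.09 ± 0.06, adjusted p = 0.377) did not pass. In limma's contrast of middle parts with ends 0 of the 12 were called (4 at an unadjusted p under 0.05), where 2.92% of all genes were, so that the count is near that share. Bambi, Smad6 and Smad7 stand in more than 1 list, and Msx1, Msx2 and Tbx3 are also expressed in other tissues next to the PSM.

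**Figure D5:**
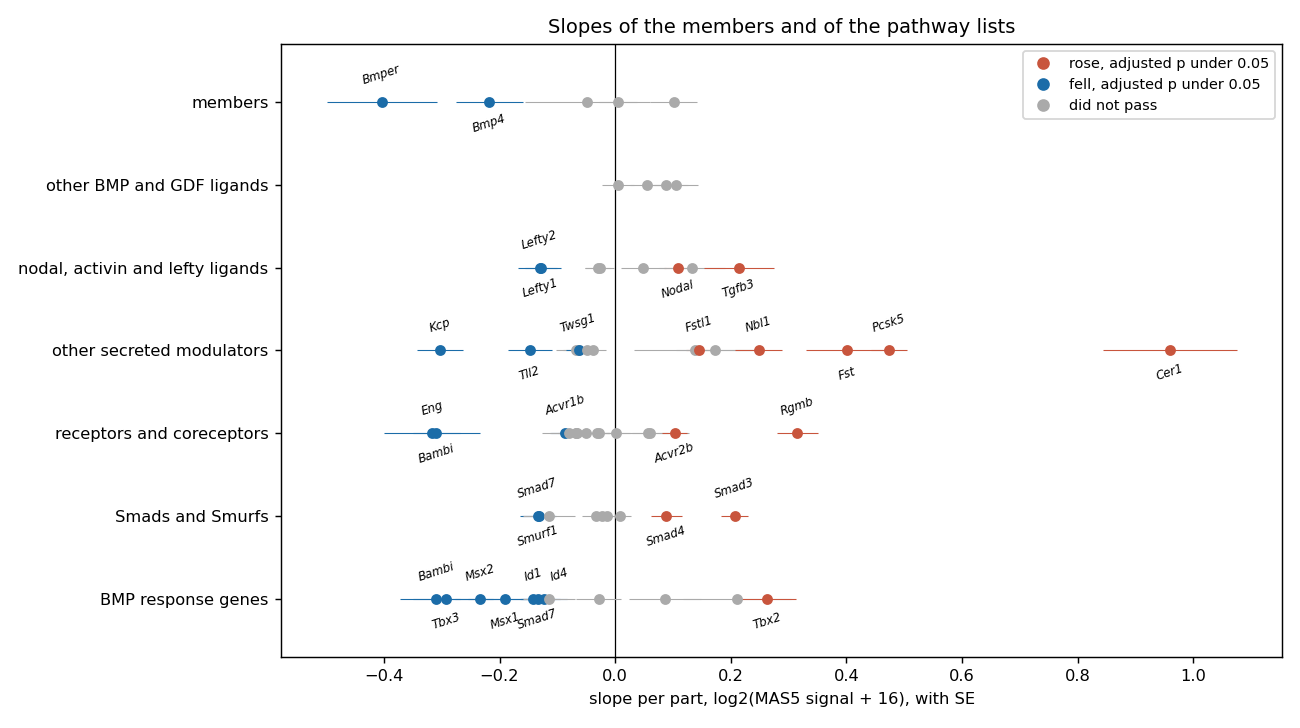
Slope per part on log2(MAS5 signal + 16), with its SE, for the tested members and the tested genes of 6 pathway lists; red marks genes that rose and blue genes that fell with an adjusted p under 0.05, which are named, and grey those that did not pass. Bmper and Bmp4 lie left of 0 among the members, and 7 of 12 BMP response genes fell.

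Markers of other tissues were present in these dissections. Neural tube sums were 801 to 1253 in part 1 and 156 to 270 in part 7, and of 7 tested genes 1 fell, Fabp7 (-0.57 ± 0.06), 1 rose, Olig2 (0.14 ± 0.04), and 5 did not pass. Olig2 was low in most arrays, reaching the filter in 7 with a highest signal of 32.4. Fabp7, with a mean of 9.92 in part 1 and 6.57 in part 7 on the log2 scale, made up most of the part 1 sum. Gut endoderm sums were 219 to 380 in part 1 and 70.5 to 254 in part 7, surface ectoderm sums 77.7 to 135 and 65.2 to 76.6, and notochord sums 37.2 to 47.3 and 39.2 to 54.8. Blood genes were abundant throughout, with sums of 6544 to 18245, and 4 of 6 fell. The epidermal regulator Trp63 and the ciliary gene Foxj1 were low in all arrays. Whether these tissues contribute to the member values was not tested.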

How the data were processed

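Presomitic mesoderm from 7 parts was hybridised to Affymetrix arrays, 3 per part. Per the submitters' processing notes, the authors summarised probe sets with MAS5; the deposited values are linear intensity values, with the MAS5 version and scaling target not given in the sources used here. Of 45101 probe sets, 64 controls, 9160 without a symbol and 932 with several were left out, and 34945 had a single symbol. The highest-mean probe set stood for each gene. Genes with a signal of at least 13.3, the median of all values, in 3 arrays were kept, log2(signal + 16) was taken, and limma 3.58.1 in R 4.3.3 was fitted to 12143 genes with a variance trend, as a model of the 7 parts and as a line over part number, with Benjamini-Hochberg adjustment and a threshold of 0.05. The members, gene lists and tests were chosen with earlier results of these data known. Named genes were all members, up to 4 called genes per pathway list and any behind a count of at most 5, and the 3 genes most correlated with each member; receptors, Id genes and others named outside this rule were singled out after their values were seen. On simulated data of 12143 genes with 100 changed per size, the slope test recovered 90% of changes of 1 log2 unit across the tissue, the F test 58% and the part 7 against part 1 contrast 74%; false calls were 8.21%, 4.29% and 6.99%. The simulated noise was independent between arrays, whereas arrays of the same replicate number deviated together in these data. These rates may therefore not hold here. Alternatives were pseudocounts of 1 and 64, other filters, normalizations, variance settings, probe sets and replicate blocks, and leaving out arrays. Sequences are from RefSeq.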

Additional observations from a re-analysis of the deposited data

How the results depend on the processing

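No called result reversed its direction under the alternatives run. The count of members called by the F test was 2 with a filter at the 75th percentile of signal, which leaves Bmp7 untested and ends the call of Bmp4, and 2 to 3 without each replicate number. By the slope 1 member remained past the threshold without any 1 replicate number (Bmper without 1 or 3, Bmp4 without 2) and 2 to 3 were called without any 1 array. Between parts 7 and 1 the count was 2, with Bmp7 added, under quantile normalization, array weights or the mean of all probe sets, and 1 to 2 in leave-outs. Over the neighbouring steps it was 0 with a pseudocount of 1, 2 with the mean of all probe sets and 0 to 2 in leave-outs. Between parts 7 and 4 it was 1 with a pseudocount of 1, without a filter or with the stricter filter, and 1 to 3 in leave-outs. Slopes without each replicate number ran from -0.269 to -0.166 for Bmp4 and from -0.450 to -0.330 for Bmper; without each array Bmper ran from -0.483 to -0.327 and Bmp7 from 0.0826 to 0.127. The Bmp7 slope was 0.0786 (adjusted p = 0.0242, the rise now called) with the mean of all probe sets, 0.126 with probe set 1418910_at and 0.0085 with 1432410_a_at, and its adjusted p ran from 0.0242 to 0.28 over the alternatives that tested it. The Nog slope was 0.117 with a pseudocount of 1. Pathway genes called by the slope numbered 17 to 21 without each replicate number, 17 without replicate 1, against 27 with all arrays. The causes were not tested, apart from the stricter filter, which tests fewer genes, and the leave-outs, which use fewer arrays.

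Arrays with the same replicate number deviated together in 55 of 63 pairs (correlation above 0.1, lowest 0.0375, median 0.306, highest 0.680), and 18 of 21 arrays correlated best with their own number, a hint from the data and not the design, so the numbers were not taken to pair the arrays. With the replicate block, fixed or random, 2 members were called between parts 7 and 1 and 2 over the neighbouring steps, Bmp7 joining Bmper in both; the block changed no other member count past 1.5 times.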
